A study of Mus musculus with 12 samples.

Results

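Autophagy receptors are the proteins that choose what a macrophage digests: they hold cargo with one part and LC3 or GABARAP proteins on the growing autophagosome with another. The 10 genes described here were chosen by name and all 10 were found among the 12960 genes counted. They are the soluble receptors Sqstm1, Optn, Nbr1, Tax1bp1 and Calcoco1, the mitochondrial membrane receptors Bnip3, Bnip3l and Fundc1, the mitophagy kinase Pink1 and the fission factor Mff. All 10 were among the 10822 genes that passed the filter on low counts.

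RNA sequencing was done on bone marrow-derived macrophages (BMDMs), which are marrow cells grown into macrophages with L929-conditioned medium as the source of M-CSF. Marrow came from WT mice or from AMPKβ1-/- mice, a line that lacks the β1 subunit of AMP-activated protein kinase in every tissue. For 6 h, cells of each genotype were kept in 0.1% DMSO as vehicle or in PF-06409577 (PF) at 10 μM, an activator of AMPK complexes that contain β1. Each of the 4 groups had 3 libraries, and the labels do not say whether these came from separate mice or cultures, so p-values measure the spread between these libraries, which may be technical.

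AMPK is activated when cellular energy falls, and ULK1, which starts autophagosome formation, and MFF, which recruits the fission enzyme DRP1 to mitochondria, are among its substrates. Soluble receptors such as p62 (the product of Sqstm1), optineurin, NBR1 and TAX1BP1 bind ubiquitin on cargo, whereas BNIP3, NIX (Bnip3l) and FUNDC1 sit in the outer mitochondrial membrane and need no ubiquitin. PINK1 accumulates on damaged mitochondria and phosphorylates ubiquitin there, which brings in parkin and the ubiquitin-binding receptors. Much of this regulation acts on protein, which a transcript count does not show.

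The libraries held 8935609 to 14358180 counts assigned to genes. Levels are given as CPM, the count scaled to library size after TMM normalization, and the 3 counts that a listed 0 would allow correspond to 0.196 to 0.321 CPM. Prkab1, which encodes AMPKβ1, was at 37.3 to 45.3 CPM in the WT libraries and at 6.05 to 9.42 CPM in the AMPKβ1-/- libraries. All 9 macrophage markers were found, with summed levels of 25250 to 29720 CPM. The granulocyte, lymphoid, dendritic and erythroid markers that were counted summed, for each type, to at most 1.39 CPM in any library. Only 5 of 8 granulocyte, 1 of 7 lymphoid, 4 of 6 dendritic, 1 of 5 erythroid and 5 of 6 fibroblast markers were among the counted genes. The lymphoid and erythroid sums thus rest on 1 gene each. Fibroblast markers summed to 0.923 to 1.89 CPM in WT libraries, to 2.02 to 8.66 CPM in AMPKβ1-/- libraries with vehicle and to 1.58 to 2.12 CPM in those with PF, and their part in the results was not tested. The libraries also differed in how strongly level followed the GC content of the transcript. The slope of log2 CPM on GC content, per 10 percentage points and relative to the mean library, was 0.36 to 0.72 in WT BMDMs with vehicle, -0.05 to 0.37 with PF, -0.36 to -0.10 in AMPKβ1-/- BMDMs with vehicle and -0.51 to -0.33 with PF.

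The receptors themselves span a wide range of base composition, from 38.8% GC in the Fundc1 transcript to 59.0% in that of Pink1, with a median of 50.1% over all tested genes. Of these, 6 lay below that median and 4 above it. The windows shown here are the 100 bases at the centre of the longest coding exon of 4 receptors, taken from GENCODE M21 on GRCm38 and written 5′ to 3′ on the gene's strand, with every G and C in capitals so that the contrast can be seen. Tax1bp1 (chr6:52742013-52742112, + strand, exon 9 of 18) and Fundc1 (chrX:17571331-17571430, - strand, exon 2 of 5) are at the low end. Sqstm1 (chr11:50207472-50207571, - strand, exon 3 of 8) and Pink1 (chr4:138325976-138326075, - strand, exon 1 of 8) are at the high end.
Tax1bp1: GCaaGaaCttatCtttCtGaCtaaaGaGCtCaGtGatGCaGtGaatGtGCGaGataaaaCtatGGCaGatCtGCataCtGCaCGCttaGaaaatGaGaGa
Fundc1: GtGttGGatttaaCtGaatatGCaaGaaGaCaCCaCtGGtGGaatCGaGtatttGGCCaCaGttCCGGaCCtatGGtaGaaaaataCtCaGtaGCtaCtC
Sqstm1: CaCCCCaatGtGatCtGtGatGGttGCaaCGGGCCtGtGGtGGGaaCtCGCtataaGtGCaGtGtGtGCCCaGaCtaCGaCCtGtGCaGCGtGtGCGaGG
Pink1: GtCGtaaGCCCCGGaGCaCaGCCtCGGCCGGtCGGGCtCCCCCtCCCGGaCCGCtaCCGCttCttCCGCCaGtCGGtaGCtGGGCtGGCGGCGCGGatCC
G and C made up 41% of the Tax1bp1 window, 43% of the Fundc1 window, 58% of the Sqstm1 window and 74% of the Pink1 window. Over the whole transcript the GC content was 42.2%, 38.8%, 54.0% and 59.0%, respectively.

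The level per length differed widely among the receptors (CPM per kb of the longest coding transcript). Sqstm1, which also serves as a signalling scaffold, was the highest in every group, at 617 ± 63.3 (SD, n = 3) in WT BMDMs with vehicle. Pink1 followed at 98.6 ± 8.47, Calcoco1, a receptor for endoplasmic reticulum, at 44.99 ± 2.09 and Nbr1, which binds aggregates and peroxisomes, at 25.2 ± 1.65. These 4 kept that order in all 4 groups, and their libraries did not overlap except those of Nbr1 and the gene after it in AMPKβ1-/- BMDMs with vehicle. Mff (14.1 ± 1.43) and Bnip3l (12.96 ± 2.31) overlapped in WT BMDMs with vehicle, as did Bnip3 (8.48 ± 2.11), Optn (8.44 ± 0.477) and Tax1bp1 (7.11 ± 1.85) in a row. Fundc1 was the lowest there, at 4.28 ± 1.01, and rested on 58 to 101 counts per library. In AMPKβ1-/- BMDMs Tax1bp1 reached 19.2 ± 4.67 with vehicle, and Optn and Fundc1 shared the bottom of the order, at 7.36 ± 0.694 and 7.09 ± 1.60.

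**Figure D1:**
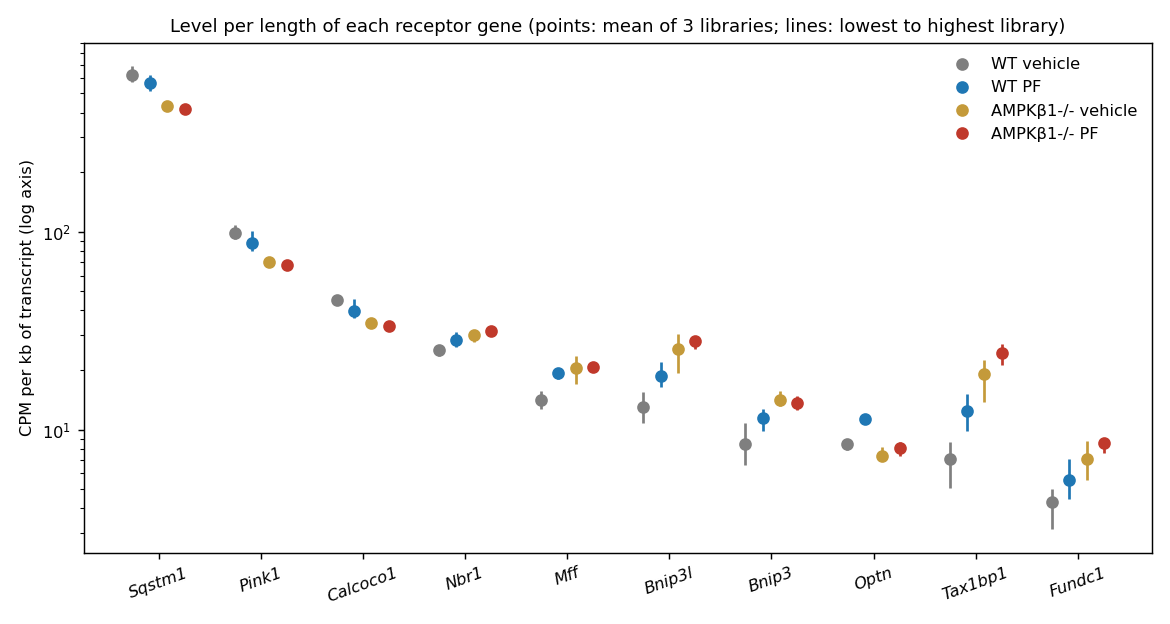
Level per length of each receptor gene (CPM per kb of transcript, log axis), with the mean of 3 libraries as a point and the lowest to highest library as a line, for each of the 4 groups. Sqstm1 is the highest and Pink1 the second in every group, while Tax1bp1 runs from 7.11 in WT BMDMs with vehicle to 24.3 in AMPKβ1-/- BMDMs with PF.

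With PF in WT BMDMs, 4 of the 10 receptors rose and 0 fell: Tax1bp1, Bnip3l, Mff and Optn. The test was edgeR's quasi-likelihood test with Benjamini-Hochberg adjustment over all tested genes, and an adjusted p below 0.05 counted as passing. Over all tested genes 6.99% rose and 8.95% fell. None of the 10 also had a log2 fold change beyond 0.8, against 1.52% of all tested genes, with Tax1bp1 just inside at 0.79. The median log2 fold change of the receptors was 0.39, beside 0.00483 over all tested genes. The 3 PF libraries did not overlap the 3 vehicle libraries for the same 4 genes, a state that 32.2% of all tested genes shared. In bulk RNA, fewer cells that express a gene and less RNA per cell cannot be told apart.

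Optn encodes optineurin, a ubiquitin-binding receptor for mitochondria and bacteria that the kinase TBK1 phosphorylates. It was at 20.6, 22.5 and 22.99 CPM in the WT vehicle libraries and at 28.4, 30.2 and 29.6 CPM in the WT PF libraries. Every PF library lay above every other library of the study, and the spread within the PF group was small. The log2 fold change was 0.41 (SE 0.11, adjusted p = 0.020), and 0.46 (adjusted p = 0.00606) after the trend of each library in GC content and length was taken out. Its transcript, at 50.7% GC, lies next to the median of all genes.

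TAX1BP1 is a ubiquitin-binding receptor that also serves A20 in restraining NF-κB signalling. Tax1bp1 was at 16.6, 28.3 and 25.2 CPM in the vehicle libraries and at 32.2, 40.15 and 49.5 CPM with PF, in WT BMDMs. The vehicle library at 16.6 CPM is the one with the steepest GC slope, and the PF library at 49.5 CPM the one with the lowest slope of its group. The log2 fold change was 0.79 (SE 0.22, adjusted p = 0.0315), and 0.37 (SE 0.11, adjusted p = 0.0376) with the GC and length trend removed.

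Bnip3l encodes NIX, which clears mitochondria from maturing red cells, and Mff the outer membrane receptor for DRP1. Bnip3l was at 35.3, 50.2 and 41.2 CPM with vehicle and at 53.3, 57.75 and 71.9 CPM with PF. Mff was at 28.9, 32.6 and 26.7 CPM with vehicle and at 40.3, 37.4 and 42.5 CPM with PF. For both genes all PF libraries were above all vehicle libraries, by 0.53 for Bnip3l (SE 0.17, adjusted p = 0.0488) and 0.45 for Mff (SE 0.12, adjusted p = 0.0226) on the log2 scale. Once the trend was taken out these values were 0.10 (adjusted p = 0.486) and 0.21 (adjusted p = 0.194). The call for Bnip3l was lost under 11 of the 20 alternatives.

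The other 6 receptors did not pass in WT BMDMs. Bnip3, a hypoxia-inducible mitophagy receptor, had a log2 fold change of 0.43 (adjusted p = 0.0711) with overlapping libraries, at 14.1, 18.9 and 11.6 CPM with vehicle and at 22.3, 17.2 and 20.85 CPM with PF. Fundc1, a receptor used in hypoxic mitophagy, had 0.37 (adjusted p = 0.227) and Nbr1 0.18 (adjusted p = 0.150). The 3 receptors with GC-rich transcripts had values below 0, at -0.17 for Calcoco1, -0.17 for Pink1 and -0.13 for Sqstm1 (adjusted p = 0.166 to 0.305). After removal of the trend 2 receptors passed, Optn and Tax1bp1, both higher, against 3.34% of all tested genes higher and 4.0% lower, and the median of the 10 was 0.091.

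The count of 4 depended on single libraries. It was 0 without WT vehicle library 1, without WT PF library 2 or without WT PF library 3, 1 without WT vehicle library 3, 5 without WT vehicle library 2 and 6 without WT PF library 1, where Calcoco1 and Pink1 fell. The log2 fold change of Optn stayed between 0.37 and 0.44 when any 1 library was left out, and that of Tax1bp1 between 0.60 and 0.96.

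**Figure D2:**
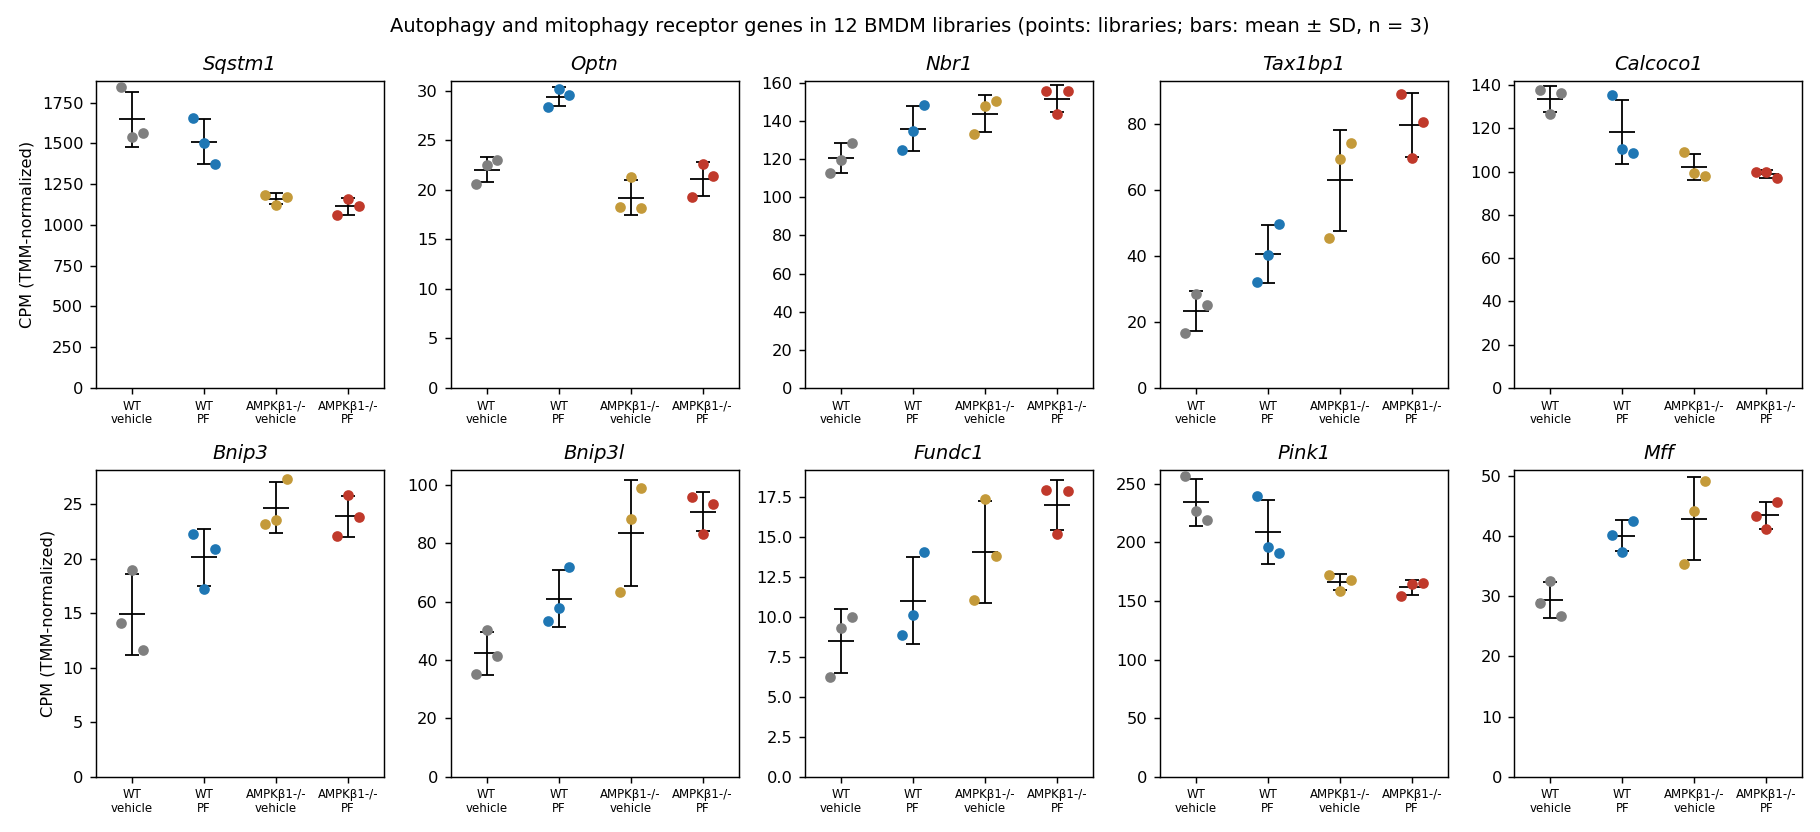
CPM of each receptor gene in the 12 libraries (vertical axes, each from 0), with points for libraries and black marks for mean ± SD of 3 libraries in each group. Optn is highest in the 3 WT PF libraries (28.4 to 30.2 CPM), while Tax1bp1, Bnip3l and Fundc1 are higher and Sqstm1 and Pink1 lower in AMPKβ1-/- BMDMs.

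In AMPKβ1-/- BMDMs 0 of the 10 receptors passed with PF in edgeR, and 0 did so with DESeq2 or limma-voom. Over all tested genes 0.0554% passed in edgeR. At an unadjusted p below 0.05 the count was also 0 with each of the 3 tools, against 4.98% of all tested genes in edgeR. No receptor had PF libraries entirely above or below its vehicle libraries, against 14.5% of all tested genes. Optn was at 18.2, 21.3 and 18.1 CPM with vehicle and at 19.25, 22.6 and 21.4 CPM with PF, a log2 fold change of 0.13 (95% CI -0.10 to 0.36). Tax1bp1 had the largest value of the 10, at 0.34 (95% CI -0.10 to 0.78, adjusted p = 0.982), and the interval still reaches close to the value in WT BMDMs. Mff was at 0.02 (95% CI -0.23 to 0.26), beside 0.45 (95% CI 0.20 to 0.70) in WT BMDMs, and these intervals overlap.

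The difference between the PF responses, WT minus AMPKβ1-/-, passed for 0 of the 10 receptors in edgeR, DESeq2 and limma-voom, against 0.416% of all tested genes in edgeR. At an unadjusted p below 0.05 there were 2 receptors with each of the 3 tools, against 14.3% of all tested genes in edgeR. These were Mff, with a difference of 0.43 (95% CI 0.08 to 0.78, adjusted p = 0.259), and Bnip3, with 0.47 (95% CI 0.01 to 0.94, adjusted p = 0.341). The difference was 0.29 for Optn (95% CI -0.03 to 0.61, adjusted p = 0.404) and 0.46 for Tax1bp1 (95% CI -0.19 to 1.10, adjusted p = 0.507). With the GC and length trend removed it was 0.23 for Mff (adjusted p = 0.467) and 0.23 for Bnip3 (adjusted p = 0.76). For Optn it was then 0.32 (adjusted p = 0.327) and for Tax1bp1 0.21 (adjusted p = 0.58). In that fit 1 soluble receptor and 0 of the mitochondrial genes had an unadjusted p below 0.05, against 1398 of 10822 tested genes. A response that differs between the genotypes was therefore not shown for any receptor, and the intervals also do not show that the responses were alike.

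**Figure D3:**
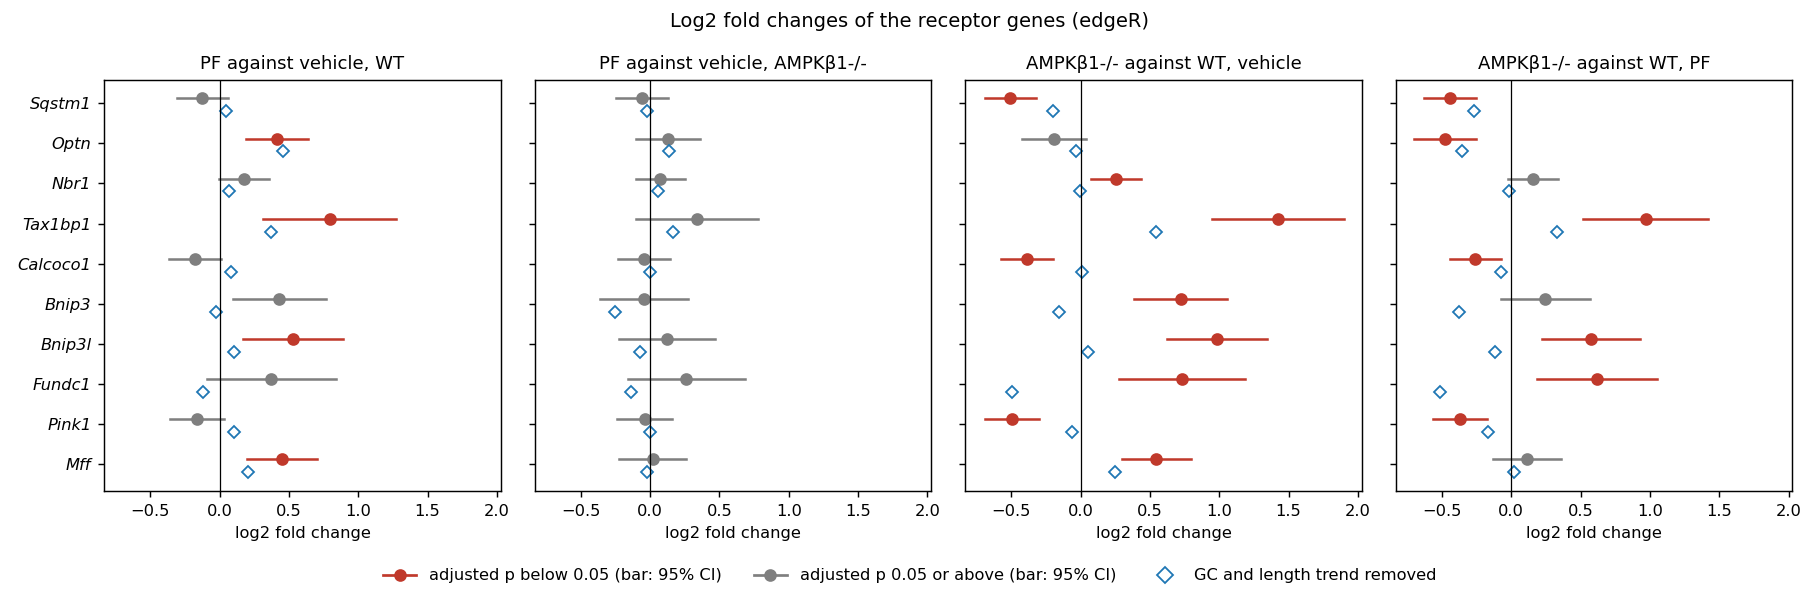
Log2 fold changes of the 10 receptors in 4 comparisons (horizontal axis), with 95% CI bars, red where the adjusted p is below 0.05 and grey otherwise. Open blue diamonds give the value with the GC and length trend removed, which for Fundc1 in AMPKβ1-/- against WT with vehicle moves from 0.73 to -0.50.

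The largest differences among the receptors lay between the genotypes. With vehicle, 6 receptors were higher in AMPKβ1-/- than in WT BMDMs (Tax1bp1, Bnip3l, Fundc1, Bnip3, Mff and Nbr1) and 3 were lower (Sqstm1, Pink1 and Calcoco1), by edgeR's adjusted p. Of all tested genes 29.7% were higher and 30.0% lower, so most genes of any kind differed here. Tax1bp1 and Bnip3l also went beyond 0.8, as did 17.8% of all tested genes, and 9 receptors had libraries that did not overlap, as did 62.9% of all tested genes. All 6 receptors with transcripts below the median GC content were higher and 3 of the 4 above it were lower. Among all tested genes on the low side 56.0% were higher and 6.22% lower, and on the high side 3.69% were higher and 53.7% lower. Across 10790 genes the Spearman correlation of the genotype difference with GC content was -0.76, which is a description over genes that share the same 12 libraries.

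Sqstm1 was at 1843, 1536 and 1566 CPM in WT BMDMs with vehicle and at 1186, 1121 and 1170 CPM in AMPKβ1-/- BMDMs with vehicle. All 3 AMPKβ1-/- libraries were below all WT libraries, and the log2 difference was -0.51 (SE 0.087, adjusted p = 0.000245). Relative to the trend it was -0.20 (SE 0.055, adjusted p = 0.00970). Sqstm1 was also lower with PF, at 1060 to 1161 CPM against 1375 to 1653 CPM in WT. That log2 difference was -0.44 (adjusted p = 0.000912), and -0.27 (adjusted p = 0.000909) with the trend removed. Sqstm1 overlaps Mrnip on the opposite strand, and Bnip3 overlaps the antisense gene Gm45507 and the pseudogene Gm18258. Opposite-strand genes also overlap Optn (4930551O13Rik), Tax1bp1 (Gm43966 and Gm43967) and Mff (C430014B12Rik). Of the 2643 stretches of 31 bases in the Sqstm1 transcript, 553 occur on the opposite strand in transcripts of other genes. This held for 108 of 2057 in Mff, 97 of 3255 in Tax1bp1 and 44 of 2584 in Optn. The library kit keeps strand, but whether the counting used it is not given in the sources used here.

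Tax1bp1 moved in the other direction. It was at 45.5, 69.3 and 74.1 CPM in AMPKβ1-/- BMDMs with vehicle, all above the WT libraries, a 2.68-fold level (log2 difference 1.42, SE 0.22, adjusted p = 0.000196). Net of the trend the difference was 0.54 (SE 0.10, adjusted p = 0.000636). With PF the log2 difference was 0.97 (adjusted p = 0.00225), and 0.33 (adjusted p = 0.00971) with the trend removed.

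Fundc1 changed its sign with the trend. It was at 6.20, 9.32 and 9.95 CPM in WT and at 11.03, 17.35 and 13.8 CPM in AMPKβ1-/- BMDMs with vehicle, with no overlap and a log2 difference of 0.73 (SE 0.21, adjusted p = 0.00854). Relative to genes of like GC content and length it was lower in AMPKβ1-/- BMDMs, at -0.50 (SE 0.14, adjusted p = 0.0126), and likewise with PF (0.62 as counted and -0.52 with the trend removed, adjusted p = 0.00497). Its transcript is the poorest in GC of the 10.

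Among the mitochondrial genes, Bnip3l was at 63.3, 88.5 and 98.95 CPM in AMPKβ1-/- BMDMs with vehicle and had a log2 difference from WT of 0.98 (adjusted p = 0.000346). Bnip3 was at 23.2, 23.5 and 27.4 CPM there, with a difference of 0.72 (adjusted p = 0.00122). Neither passed once the trend was taken out, at 0.06 for Bnip3l (adjusted p = 0.609) and -0.15 for Bnip3 (adjusted p = 0.527). Both values also carry a counting limit. On the same strand, 27.4% of the 31-base stretches of the Bnip3l transcript and 26.6% of those of Bnip3 also occur in annotated pseudogenes. These are Bnip3l-ps for the first and Gm16439 and others for the second, and they are not among the counted genes. On the opposite strand, 1245 of the 1721 stretches of Bnip3 and 0 of those of Bnip3l occur in transcripts of other genes.

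Pink1 was at 257, 227 and 219 CPM in WT and at 172, 158 and 168 CPM in AMPKβ1-/- BMDMs with vehicle, with no overlap. The log2 difference was -0.50 (adjusted p = 0.000414) as counted and -0.06 (adjusted p = 0.481) with the trend removed. Mff was at 35.5, 44.2 and 49.2 CPM in AMPKβ1-/- BMDMs with vehicle, 0.55 above WT (adjusted p = 0.00116), and 0.25 (adjusted p = 0.0396) with the trend removed. Calcoco1 (-0.39, adjusted p = 0.00166) and Nbr1 (0.26, adjusted p = 0.0164) were at 0.01 and -0.002 with the trend removed.

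After removal of the trend, the count with vehicle was 2 higher (Tax1bp1 and Mff) and 2 lower (Sqstm1 and Fundc1), against 13.9% and 20.2% of all tested genes. Removing the trend also takes out any change that genes of like GC content or length share, so how much of each difference is technical cannot be told apart here.

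Optn was among the receptors that differed between the genotypes with PF. Its AMPKβ1-/- libraries with PF, at 19.25, 22.6 and 21.4 CPM, were all below the WT PF libraries at 28.4 to 30.2 CPM. The log2 difference was -0.48 (SE 0.11, adjusted p = 0.00190), and -0.35 (SE 0.095, adjusted p = 0.00670) with the trend removed. With vehicle it was -0.19 (adjusted p = 0.136), and the difference between these 2 values is the interaction given above, which did not pass. With PF, 3 receptors in all were higher in AMPKβ1-/- BMDMs and 4 lower, against 24.1% and 22.9% of all tested genes. Scaled by library size alone, which raised the median of all genes by 0.15, the split was 4 higher and 3 lower. Tax1bp1 was beyond 0.8, as were 14.3% of all tested genes, and 7 receptors did not overlap, as did 59.9% of all tested genes. Net of the trend Tax1bp1 was higher and Sqstm1, Optn, Fundc1 and Pink1 (-0.16, adjusted p = 0.0392) were lower, against 16.2% and 21.7% of all tested genes. Without WT PF library 1 the count of 7 was 4.

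**Figure D4:**
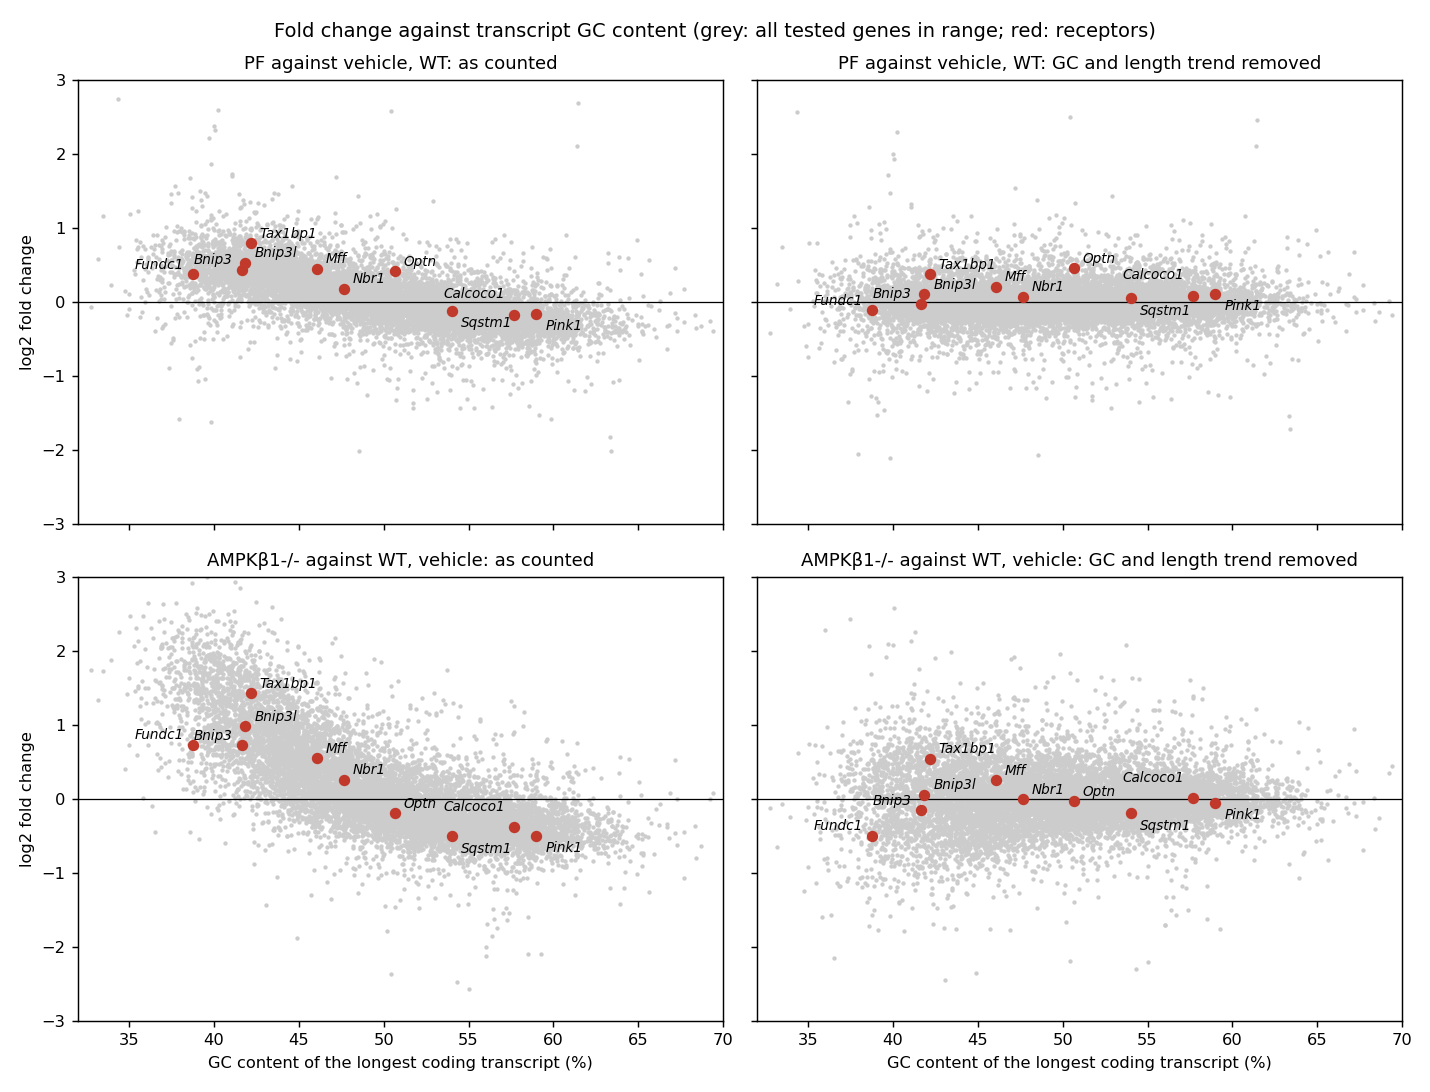
Log2 fold change (vertical axis) against the GC content of the longest coding transcript in % (horizontal axis), for all tested genes in range in grey and the 10 receptors in red, for PF in WT BMDMs (top) and for AMPKβ1-/- against WT with vehicle (bottom). On the left the values of all genes fall with GC content (Spearman correlation -0.71 and -0.76 over 10790 genes). Optn, at 50.7% GC, is at 0.41 in the top left panel. On the right, with the trend removed, Optn (0.46, top) and Tax1bp1 (0.37 and 0.54) lie above 0 and Fundc1 (-0.50, bottom) below it.

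Other genes of the same pathways were read from lists of names. Between the genotypes with vehicle, 6 were higher and 5 lower among the further receptors, 5 and 9 of the PINK1-parkin genes, 3 and 5 of the fission and fusion genes and 3 and 4 of the hypoxia genes, beside 29.7% and 30.0% of all tested genes. With the trend removed these counts were 0 and 8, 2 and 8, 1 and 3, and 4 and 5, beside 13.9% and 20.2%. Among 19 further selective autophagy receptors and adaptors, 2 rose and 1 fell with PF in WT BMDMs, beside 6.99% and 8.95% of all tested genes. Ncoa4, the receptor for ferritin, rose by 0.62 (adjusted p = 0.0422), Retreg1, a receptor for endoplasmic reticulum, by 0.48 (adjusted p = 0.0422), and Fkbp8, a mitochondrial receptor, fell by 0.39 (adjusted p = 0.0205). None of the 3 passed once the trend was taken out (0.26, 0.19 and -0.14). Of the 5 LC3 and GABARAP genes, 1 rose and 0 fell with PF in WT BMDMs, beside the same shares. Gabarapl1 rose by 0.25 (adjusted p = 0.0431) and by 0.34 with the trend removed (adjusted p = 0.00223). In WT BMDMs it was at 178 ± 18.5 CPM without and 211 ± 5.29 CPM with PF, against 152 ± 5.24 and 152 ± 3.13 CPM in AMPKβ1-/- BMDMs (SD, n = 3). In AMPKβ1-/- BMDMs with vehicle 4 of the 5 were lower than in WT, among them Map1lc3b at -0.41 (adjusted p = 0.000471) and Map1lc3a at -0.66 (adjusted p = 0.000117), and with the trend removed these 2 did not pass.

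Among 24 genes of the PINK1-parkin machinery 2 rose and 2 fell with PF in WT BMDMs, beside 6.99% and 8.95% of all tested genes. Tomm7, which helps hold PINK1 at the outer membrane, rose by 0.66 (adjusted p = 0.0222) and the channel gene Vdac2 by 0.24 (adjusted p = 0.0484), whereas the deubiquitinase gene Usp35 fell by 0.53 (adjusted p = 0.0234) and the GTPase gene Rhot2 by 0.32 (adjusted p = 0.0484). Of these 4, Vdac2 alone passed with the trend removed, at 0.20 (adjusted p = 0.0448). Of 12 fission and fusion genes 3 fell and 0 rose, beside 8.95% and 6.99% of all tested genes. Inf2 fell by 0.44, Mfn2, a fusion GTPase of the outer membrane, by 0.25 and Dnm2 by 0.29 (adjusted p = 0.0197 to 0.0404). None passed with the trend removed. The NRF2-responsive list, whose regulator SQSTM1 can release by binding KEAP1, had 0 of 10 genes passing in edgeR, with 5 at an unadjusted p below 0.05 against 35.3% of all tested genes, and 1 passing in DESeq2 and in limma-voom. With the trend removed 1 gene of this list was higher with PF, beside 3.34% of all tested genes. In AMPKβ1-/- BMDMs with vehicle 5 of its genes were higher and 1, Keap1 itself (-0.59, adjusted p = 0.000169), was lower, against 29.7% and 30.0% of all tested genes. The counts were also 5 and 1 with the trend removed, against 13.9% and 20.2%, but not for all the same genes. Nfe2l2 passed only as counted (0.44, adjusted p = 0.0127, against 0.23, adjusted p = 0.0826, with the trend removed). Hmox1 passed only with the trend removed (0.34, adjusted p = 0.000422, against 0.01, adjusted p = 0.903, as counted). Of 14 hypoxia-responsive genes, among which BNIP3 is usually counted, 1 rose in edgeR and limma-voom and 2 in DESeq2. Over all tested genes 6.99% rose in edgeR. The hypoxia gene that rose in edgeR was Ero1a, by 0.63 (adjusted p = 0.0112). It was at 0.20 with the trend removed (adjusted p = 0.294), where Pdk1 fell by 0.37 (adjusted p = 0.00824). Hif1a was higher in AMPKβ1-/- BMDMs with vehicle, by 1.46 (adjusted p = 0.000109) and by 0.36 with the trend removed (adjusted p = 0.00611). No gene of these 6 lists passed with PF in AMPKβ1-/- BMDMs by edgeR, DESeq2 or limma-voom, and 0 or 1 gene of each list had an unadjusted p below 0.05. In the difference between the responses none passed by edgeR or limma-voom, 1 PINK1-parkin gene did by DESeq2, and 1 to 6 genes of each list had an unadjusted p below 0.05 in edgeR. With the trend removed 1 NRF2 gene passed in this difference, with a value above 0, against 85 higher and 94 lower of 10822 tested genes.

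The genes whose level most resembled that of 3 receptors were sought by Pearson correlation of log2 CPM over the 12 libraries, which share the GC trend. For Sqstm1 these were Dpp3, Slc25a1 and Tufm (r = 0.992 to 0.993, GC content 55.9% to 59.1%), and for Pink1 Nubp2, Puf60 and Abhd17a (r = 0.988 to 0.989, 55.1% to 64.6%). For Bnip3 they were Ift88, Prps1 and Tbc1d19 (r = 0.935 to 0.951, 42.6% to 44.99%). Sqstm1 and Pink1 correlated with each other at 0.982 and Sqstm1 with Tax1bp1 at -0.949.

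Promoter windows of 250 bases before the start were found for 9 of the 10 genes (RefSeq, GRCm38.p6; 12 windows), and Bnip3l had no match. The E-box CACGTG was found in 1 of the 12, that of Bnip3, against 6.02% of 32851 promoter windows, and it holds the hypoxia core ACGTG on both strands. ACGTG was found in 3 of the 12 windows (16.6% of all) and TGACNNNGC, a form of the antioxidant response element, in 1 (10.2% of all). Besides Bnip3, ACGTG lay in window 2 of Nbr1 and window 2 of Tax1bp1, and the latter also held TGACNNNGC. For these windows of Nbr1 and Tax1bp1, and for that of Optn, the bases after the start were not found in a GENCODE transcript of the gene. The windows of Mff overlap each other. The sequences TCACGTGA and TGACGTCA were in 0 of the 12 (0.785% and 1.55% of all), all counted on both strands. The Bnip3 window (chr7:138909507-138909756, - strand) is shown because it carries the one E-box, which is in capitals.
Bnip3: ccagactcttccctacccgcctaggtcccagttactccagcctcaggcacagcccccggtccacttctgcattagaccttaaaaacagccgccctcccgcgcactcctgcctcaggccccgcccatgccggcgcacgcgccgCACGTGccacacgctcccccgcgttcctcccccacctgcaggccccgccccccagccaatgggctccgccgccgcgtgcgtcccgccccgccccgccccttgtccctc
A match is a string of letters and not a site, and Bnip3 did not pass with PF.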

How the data were processed

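Reads were trimmed (Trim Galore) and transcripts quantified (Salmon) by the authors; the Salmon version and options, the genome build and the filter on genes are not given in the sources used here. The deposited values are estimated counts per gene, as whole numbers without normalization, for 12960 genes in 12 libraries. They were used as counts after rounding, which changed nothing. Library totals were 8935609 to 14358180. Groups came from the count column names matched to the labels, and library numbers are those of the columns, which were not read as pairs.

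The main test was edgeR 4.0.16 in R 4.3.3 (TMM, filterByExpr by group, robust quasi-likelihood fit of 4 group means to all 12 libraries, 10822 genes), beside limma 3.58.1 and DESeq2 1.42.0. The 5 contrasts were tested with Benjamini-Hochberg adjustment over all tested genes; adjusted p below 0.05 passed, and a log2 fold change beyond 0.8 was counted beside it. SE were derived from the fold change and F statistic and are approximate. Log2 CPM used a prior count of 2.

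GC content and length came from the longest coding transcript of GENCODE M21 (12707 genes matched by symbol, 200 by an older symbol, 53 not matched). For 99.7% of tested genes, each library's trend in both was estimated by natural splines (5 degrees of freedom) and used as the offset of a second fit. The split at the median GC content was chosen after values were seen. Scripts were tested on simulated data.

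All 10 receptors are named. From each other list, genes named are among the up to 4 with the smallest p with PF in WT BMDMs, and likeness is given for Sqstm1, Bnip3 and Pink1. The members and lists were chosen with earlier results of these data known. Alternatives were DESeq2 size factors, library size alone, no filter, DESeq2, limma-voom, the libraries of a contrast alone, the GC and length trend removed, leaving out each library and, added after the data were seen, the column number as a block. Intervals and floors cover counting error only where they come from counts.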

Additional observations from a re-analysis of the deposited data

How the results depend on the processing

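Over 990 values of a receptor in a contrast under an alternative, 912 kept direction and side of the threshold, 42 lost the call, 6 gained it and 30 changed sign. The labels share no replicate numbers across groups, but the count columns are numbered 1 to 3 in each. Of 18 pairs of same-numbered libraries, 6 had a correlation of deviations from the group means over 0.1 (range -0.184 to 0.317). Libraries of unlike number reached 0.324, for WT vehicle library 2 and a WT PF library. The same number correlated best in 15 of 36 comparisons, each with 3 numbers to choose from. Number 1 correlated at 0.317 between WT vehicle and WT PF, 0.225 between the vehicle groups and 0.211 between WT PF and AMPKβ1-/- vehicle. With AMPKβ1-/- PF it correlated at -0.184 to -0.129. Whether the numbers mark a shared preparation is not known. A fit with this number as a replicate block, added after the data were seen, gave the same counts of receptors as the fit without it (4, 0, 0, 9 and 7 in the 5 contrasts) and changed no call for a receptor. Among the other lists it moved the count with PF in WT BMDMs from 0 to 1 for the NRF2 genes and from 1 to 2 for the hypoxia genes. Depth limits Fundc1 most, and scaling by library size alone moved the median of all genes by 0.21 for AMPKβ1-/- against WT with vehicle and by 0.15 with PF.

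The count of receptors passing with PF in WT BMDMs (4) was 5 with DESeq2, 3 without the low-count filter, 2 with the libraries of the contrast alone, 2 after removal of the trend in GC content and length, and 0 to 6 without 1 library. The count beyond 0.8 (0) was 1 with DESeq2 size factors, library size alone, no filter, DESeq2, limma-voom or the contrast alone, and 0 to 1 without 1 library. With vehicle, AMPKβ1-/- against WT, the 9 calls became 4 with the trend removed, and the 2 beyond 0.8 became 4 with library size alone, 0 with the trend removed and 2 to 4 without 1 library (4 without WT vehicle library 2). With PF the 7 calls were 4 to 8 without 1 library, and the 1 beyond 0.8 was 0 with the trend removed and 1 to 2 without 1 library (2 without WT PF library 3). Library size alone gave 4 higher and 3 lower with PF in place of 3 and 4.

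Signs changed with the trend removed as follows. With PF in WT BMDMs Sqstm1 was 0.0445, Calcoco1 0.0816, Bnip3 -0.0256, Fundc1 -0.118 and Pink1 0.103. With PF in AMPKβ1-/- BMDMs Bnip3l was -0.0695, Fundc1 -0.137 and Mff -0.0230. In the difference between responses Sqstm1 was 0.0698, Calcoco1 0.0822 and Pink1 0.105. For AMPKβ1-/- against WT with vehicle Nbr1 was -0.00210, Calcoco1 0.00766, Bnip3 -0.153 and Fundc1 -0.498, and with PF Nbr1 was -0.0167, Bnip3 -0.379, Bnip3l -0.115 and Fundc1 -0.517. Optn, AMPKβ1-/- against WT with vehicle, was 0.0161 with library size alone, which is below the shift of the median. The trend's part in these changes follows from the alternative's construction; no other cause was tested.

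Without 1 library the PF response in AMPKβ1-/- BMDMs ranged from -0.0721 to 0.00315 for Calcoco1, -0.104 to 0.0342 for Bnip3, -0.0420 to 0.257 for Bnip3l and -0.101 to 0.122 for Mff. The difference between responses ranged from -0.136 to 0.0212 for Sqstm1 and from -0.107 to 0.262 for Fundc1.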
